A study of Mus musculus with 43 samples.

Results

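Retinas of laser-lesioned mice that drank short-chain fatty acids (SCFA) were compared between 14 and 7 days post-laser (dpl). All 12 SCFA libraries of these days among the first 31 columns of the deposited count table were used, of 43 libraries in the series, and all genes were examined. At 7 dpl there were 3 male and 3 female libraries, and at 14 dpl also 3 and 3. Every library pooled 2 retinas, from 2 different animals of the same group. The mice were C57BL/6J, 9 weeks old at the lesion, and no transgene or deletion was involved. All of them received laser burns that induce choroidal neovascularization (CNV), the growth of vessels from the choroid under the retina. The drinking water held 67.5 mM sodium acetate, 40 mM sodium propionate and 25 mM sodium butyrate from before the lesion until tissue was taken. The labels also give these doses in g/L, where butyrate stands above propionate, so the doses of these salts are uncertain. Lasered mice of both sexes without SCFA served as controls. Of these, 10 libraries at 7 and 14 dpl stand among the same 31 columns and were used to set the SCFA interval beside the untreated one. Another 4 SCFA libraries of these days stand among the last 12 columns, and they are given beside the results that they touch. No unlesioned retina was among the samples.

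A laser burn breaks the layer under the photoreceptors, and the retina around it answers over days to weeks. Müller glia, the radial support cells that span the retina, take up glutamate, shuttle retinoids and enter reactive gliosis, in which they produce the intermediate filaments GFAP and vimentin. Microglia, the resident macrophages, gather at the lesion, clear debris and make most of the complement C1q of the tissue. SCFA are made by gut bacteria from fibre, are sensed by G-protein-coupled receptors such as Ffar2 and Ffar3, and butyrate inhibits histone deacetylases. Bulk RNA cannot tell fewer cells of a type from less RNA per cell, and this holds for each cell type marker named here.

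The 12 libraries held 15138510 to 21507527 counts (median 18477469.5), so that 3 counts of a gene, taken as the floor, equal 0.134 to 0.207 CPM, the usual unit of counts scaled to library size. The X-linked transcript Xist had 9390 counts or more in each female library and 5 or fewer in each male library. The Y-linked genes Ddx3y, Eif2s3y, Kdm5d and Uty had 0 counts in the females and 304 or more in the males, as the labels give the sexes. Rod genes were the most abundant cell type markers in each library, as the retinal label implies. The first principal component, with 30.005% of the variance, set male SCFA 7 dpl replicates 1 and 3 apart from the other 10 libraries. The mean level of the rod genes, as log2(CPM + 1), was 12.003 and 11.695 in these libraries, against 12.215 to 12.441 in the other 10. The second component, with 14.7%, set female SCFA 7 dpl replicate 3 apart, which held the most lens transcripts. Male SCFA 7 dpl replicate 2 held the most myelin transcripts. Values without these libraries are given beside several of the lists and genes that rest on them. Without male replicates 1 and 3, replicate 2 is the only male library of 7 dpl left, so such male values rest on 1 library of that day.

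The first question was which genes differed between the days in both sexes, with sex as a covariate. No gene did so at the thresholds of the study. Of 16697 genes tested, 0 passed an adjusted p under 0.1 (0%), and the smallest adjusted p was 0.240 (edgeR quasi-likelihood test, Benjamini-Hochberg adjustment). At an unadjusted p under 0.05, 685 genes were higher at 14 dpl (4.1%) and 1205 were lower (7.22%). DESeq2 passed 39 genes at an adjusted p under 0.1, of which 13 also had an absolute log2 fold change over 1. The 6 libraries of one day lay wholly below the 6 of the other for 29 genes that were lower at 14 dpl (0.174%) and for 19 that were higher (0.114%). The gene model Gm10222 had the smallest adjusted p, 0.240 (edgeR quasi-likelihood test), with a log2 fold change of -0.93 and no overlap of the days. Genes with an established symbol and the smallest p among such genes, chosen after their values were seen, are given here as values only.

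Cryab encodes alphaB-crystallin, a small heat shock protein of glia and lens. Its CPM were 66.7, 66.01 and 96.6 in females and 80.1, 78.6 and 94.04 in males at 7 dpl, and 66.5, 56.7 and 42.5 in females and 46.4, 50.3 and 54.5 in males at 14 dpl. The days overlapped by 1 library each, at 66.01 and 66.5 CPM in females, and the log2 fold change was -0.60 (SE 0.12). Pianp, which encodes a neuronal membrane protein, lay at 29.7, 29.6 and 27.3 and 25.3, 29.7 and 21.01 CPM in females and males at 7 dpl and at 38.8, 44.7 and 43.3 and 26.6, 37.9 and 38.7 CPM at 14 dpl. All 3 female libraries of 14 dpl were above all those of 7 dpl, while the male libraries overlapped, and the log2 fold change was 0.50 (SE 0.11). The elastic fibre protein gene Fbln5 had a log2 fold change of -0.89 (SE 0.20) and the ethanolamine phosphate lyase gene Etnppl one of -0.52 (SE 0.12). None of these values passed the adjustment (edgeR quasi-likelihood test, adjusted p = 0.399 for each).

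Transcripts of the mitochondrial genome took a smaller share of the counts at 14 dpl. The 13 mitochondrial mRNAs encode core subunits of the respiratory chain and of ATP synthase. Their share of all counts at 7 dpl was 8.80, 6.88 and 9.26% in the female and 13.8, 7.65 and 14.8% in the male libraries. At 14 dpl it was 7.12, 4.89 and 4.99% in the females and 7.91, 4.86 and 6.51% in the males. The highest shares were those of male replicates 1 and 3 at 7 dpl, and in both sexes the days overlapped, with the lowest library of 7 dpl below the highest of 14 dpl. All 13 mRNAs had a negative log2 fold change, 12 of them at an unadjusted p under 0.05, with a median of -0.87 against 0.0012 over all genes tested. None passed the adjusted p.

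By single genes, mt-Nd5, a subunit of complex I, lay at 7397, 6227 and 10399 CPM in females and 12439, 6503 and 12587 CPM in males at 7 dpl. At 14 dpl it lay at 5731, 4167 and 4497 and 5945, 4338 and 5337 CPM. The 6 libraries of 14 dpl were all below the 6 of 7 dpl, and the log2 fold change was -0.87 (SE 0.18). For mt-Co1, the catalytic subunit of cytochrome c oxidase and the highest mitochondrial mRNA, the log2 fold change was -0.87 (SE 0.19), and for mt-Co3, a further subunit, -1.41 (SE 0.38), with 352, 153 and 1149.7 CPM in the males at 7 dpl. The exception at an unadjusted p under 0.05 was mt-Atp6 of ATP synthase, at 824, 114 and 138 CPM in the males of 14 dpl. By sex, the median of the list was -1.05 in males and -0.69 in females.

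The mitochondrial value depended on which male libraries were used. Without male replicates 1 and 3 of 7 dpl, the median in males was -0.30, with 10 of 13 mRNAs lower, and over both sexes it was -0.48. With the libraries that the study lists for these groups, which hold neither of them and add 2 male libraries of the last 12 columns, the male median was 0.40, with all 13 higher at 14 dpl. In the last 12 columns, the share was 3.74% to 4.57% in the 3 SCFA libraries of 7 dpl and 3.73% in the one of 14 dpl. Controls of the first 31 columns held 5.31% to 9.05% at 7 dpl and 4.71% to 8.17% at 14 dpl. The nuclear genes of oxidative phosphorylation had a median of -0.05, and 75 of 78 genes of cytosolic ribosomal proteins, another list of short abundant transcripts, were lower, 19 of them at an unadjusted p under 0.05.

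**Figure D1:**
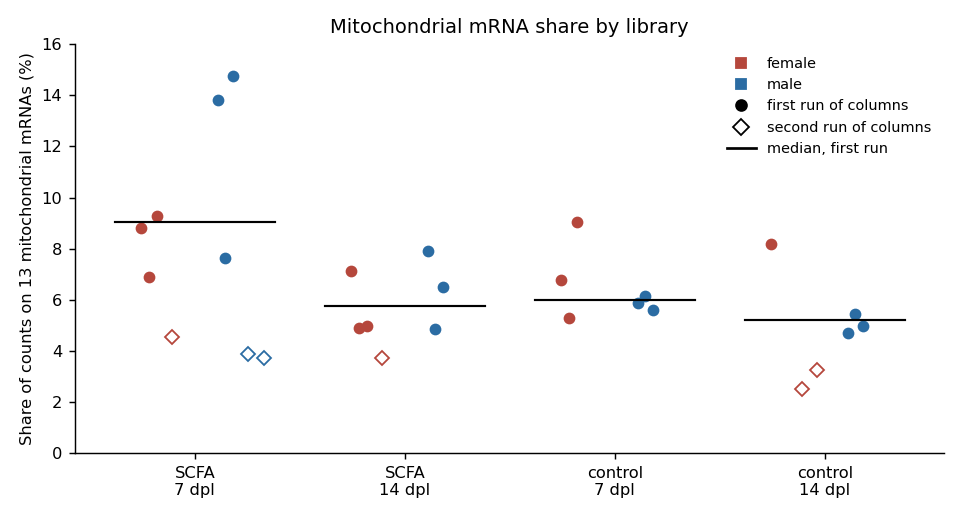
Share of all counts that fell on the 13 mitochondrial mRNAs (y axis, percent) in SCFA and control libraries at 7 and 14 dpl (x axis), with a point for each library, filled for the first 31 columns of the table and open for the last 12, and a line at the median of the filled points. SCFA males of 7 dpl reach 13.8% and 14.8%, the SCFA libraries of 14 dpl lie between 4.86% and 7.91%, and the open points lie lower at both days.

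The second question was what changed within each sex, from a fit of the 4 groups of sex and day. In females, 4 of 17046 genes passed the adjusted p (0.0235%), with 2 higher and 2 lower at 14 dpl. The unadjusted p was under 0.05 for 454 higher (2.66%) and 434 lower (2.55%) female genes. Nr4a3 and Lypd2 rose, and Lpin2 and Rorb fell. Of these, 3 also had an absolute log2 fold change over 1. Their number was 0 without any one of the 3 female libraries of 14 dpl, or without female replicate 2 or 3 of 7 dpl.

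Nr4a3 (chromosome 4, bases 48045153 to 48086447, GRCm38) encodes an orphan nuclear receptor that is induced within an hour or so by activity, calcium and cAMP. In females it lay at 1.05, 0.562 and 1.03 CPM at 7 dpl and at 4.70, 4.46 and 6.03 CPM at 14 dpl, with no overlap. It was 5.73-fold higher at 14 dpl, with a log2 fold change of 2.52 (SE 0.34, edgeR quasi-likelihood test, adjusted p = 0.0227). In males it lay at 4.28, 5.21 and 4.21 CPM at 7 dpl and at 2.53, 2.49 and 5.26 CPM at 14 dpl, so that the female libraries of 7 dpl were the low group. In the last 12 columns, the female library of 7 dpl held 1.29 CPM and that of 14 dpl 1.58 CPM, below the 3 others of its day. With these libraries added and the run of columns as a block, the female log2 fold change was 2.03 and did not pass.

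Lpin2 (chromosome 17, bases 71182560 to 71249817) encodes a phosphatidate phosphatase of triglyceride synthesis. In females it fell from 115, 123 and 119.6 CPM to 69.1, 69.8 and 64.03 CPM, a log2 fold change of -0.81 (SE 0.11, edgeR quasi-likelihood test, adjusted p = 0.0227). The female library of 7 dpl in the last 12 columns held 90.3 CPM, and that of 14 dpl 97.6 CPM, which is the higher of this pair. Rorb (chromosome 19, bases 18930605 to 19111196) encodes a nuclear receptor needed for rod fate that also takes part in the circadian clock. It fell in females from 356, 367 and 539 CPM to 192, 212 and 222 CPM, with a log2 fold change of -1.002 (SE 0.16, edgeR quasi-likelihood test, adjusted p = 0.0634), while the males lay at 259.7, 262 and 237 and 274, 230.1 and 296 CPM. Lypd2, a small GPI-anchored protein of the Ly6 family, had 2, 1 and 2 counts in the females of 7 dpl and 30, 36 and 21 counts in those of 14 dpl. With so few counts at 7 dpl no fold is given (edgeR quasi-likelihood test, adjusted p = 0.0634).

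Immediate early genes, transcription factors and effectors that neurons and glia switch on without new protein synthesis, were mostly higher in the females of 14 dpl. In females, 8 of 26 tested were higher at an unadjusted p under 0.05, beside 2.66% of all genes. Of the 26, 25 had a positive log2 fold change in females and 1, Nr4a3, passed the adjusted p. Their median log2 fold change was 0.37 in females and -0.23 in males, where 11 were higher and 15 lower, against -0.0048 and 0.0086 over all genes tested. Their mean level, as log2(CPM + 1), was 3.39, 3.39 and 3.25 in the females of 7 dpl and 3.66, 3.81 and 3.76 in those of 14 dpl, without overlap. In males it was 3.81, 3.60 and 3.70 at 7 dpl and 3.51, 3.44 and 3.78 at 14 dpl, and these overlapped. With the libraries of the last 12 columns added and the run of columns as a block, 23 of 26 were higher in females, the median was 0.29 and none passed.

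The members below were chosen after their values were seen, and none of them passed the adjusted p in females. Fosl2, a Fos family subunit of the transcription factor AP-1, lay at 5.01, 4.83 and 5.11 CPM at 7 dpl and 10.4, 10.8 and 16.2 CPM at 14 dpl in females (log2 fold change 1.33, SE 0.24). Arc, which encodes a synaptic protein that governs receptor endocytosis, lay at 1.27, 0.843 and 0.913 and 1.43, 3.39 and 2.50 CPM in females, and its log2 fold change of 1.28 (SE 0.41) stood beside 1.101 (SE 0.43) in males. Egr3, a zinc finger factor of the early growth response family, went from 0.897, 1.29 and 0.913 to 2.35, 2.23 and 2.11 CPM in females and from 4.79, 2.08 and 3.39 to 2.24, 0.831 and 3.26 CPM in males. The classic members Fos and Egr1 had female log2 fold changes of 0.47 (SE 0.23) and 0.16 (SE 0.38). The MAP kinase feedback list, phosphatases and Sprouty proteins that damp the same signals, had medians of 0.11 in females and -0.32 in males. Without male replicates 1 and 3 of 7 dpl the male median of this list was -0.084, and that of the immediate early genes 0.038.

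Clock genes, which share inputs with the immediate early genes, were likewise picked with their values in view, save Rorb. Per1, a repressor of the circadian clock that light induces, lay in females at 62.7, 60.5 and 50.2 CPM at 7 dpl and 82.00, 100.4 and 102 CPM at 14 dpl (log2 fold change 0.72, SE 0.14), and in males at 95.01, 102 and 92.2 and 95.2, 77.3 and 102 CPM. In the female libraries Cry2, another repressor, had 0.51 (SE 0.15) and Bhlhe40, an inducible repressor, 0.40 (SE 0.12) as log2 fold change. Of 20 clock genes, 5 were higher and 1, Rorb, was lower at an unadjusted p under 0.05 in females, and Rorb passed the adjusted p. The activators Arntl and Clock had female log2 fold changes of 0.094 (SE 0.12) and -0.11 (SE 0.13). The hour at which tissue was taken is not given in the sources used here.

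**Figure D2:**
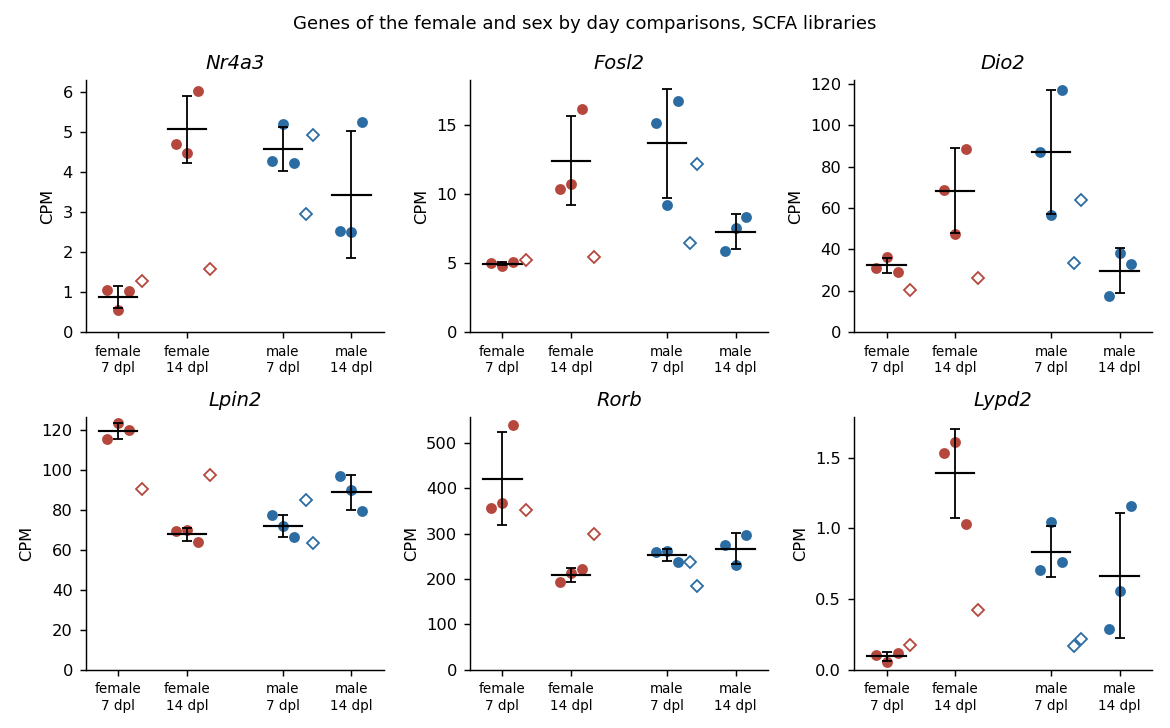
CPM of 6 genes (y axes, from 0) in SCFA females (red) and males (blue) at 7 and 14 dpl, with filled circles for the libraries of the first 31 columns, black lines and bars for their mean and SD (3 libraries each), and open diamonds for the libraries of the last 12 columns. For Nr4a3, Fosl2 and Dio2 the filled female points are higher at 14 than at 7 dpl, for Lpin2 and Rorb lower, and the open female diamonds of 14 dpl lie nearer to the filled female points of 7 dpl in these 5 panels.

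The promoters of 2 of these genes are shown because both carry the letters of a cAMP response element, the DNA motif read by CREB. RefSeq windows (GRCm38.p6) from 250 bases before to 50 bases after a gene start were searched on both strands for TGACG, the core of this element, and for the palindrome TGACGTCA that contains it. All 7 genes whose change differed between the sexes have such a window. Some genes have more than 1 window, with 9 for these 7 genes and 27 for the immediate early genes. A gene counted if any of its windows held the letters, and not every window of Lpin2 held them before the start. The counts below are those of the 7 genes, the immediate early genes and all genes. TGACG stands in a window of 3 of the 7, Nr4a3, Dio2 and Lpin2, and of 14 of the 21 immediate early genes with a window, against 6228 of 27025 genes in all (23.05%). TGACGTCA stands in 1 of the 7, Dio2, against 2.03% of all genes. The stretches below run 5′ to 3′ on the strand of the gene, with TGACG or its reverse complement in capitals (in Dio2 the whole palindrome, in which both overlap).
Nr4a3, plus strand, chr4:48045064-48045152, from 241 to 153 bases before the RefSeq start: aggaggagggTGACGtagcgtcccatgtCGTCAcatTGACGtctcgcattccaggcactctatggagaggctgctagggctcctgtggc
Dio2, minus strand, chr12:90739039-90739168, from 130 to 1 bases before the RefSeq start: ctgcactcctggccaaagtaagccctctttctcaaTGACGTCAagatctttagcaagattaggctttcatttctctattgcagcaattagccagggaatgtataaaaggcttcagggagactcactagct
The Nr4a3 stretch, which ends before the first base of the gene in GENCODE, holds 3 of the 4 copies found before the RefSeq start, 1 of them on the minus strand. The GENCODE start of Dio2 lies downstream of its RefSeq start, so its stretch is farther from the GENCODE start than the distances given. These matches describe the letters only, and binding of CREB was not measured.

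In males, 68 of 17046 genes passed the adjusted p (0.399%), with 66 lower and 2 higher at 14 dpl. Of these, 45 were differentially expressed genes (DEGs) with an absolute log2 fold change over 1, 43 of them lower. DESeq2 gave 194 DEGs, while median-ratio scaling (RLE) gave 3, a filter of at least 10 counts in every library gave 3, and the libraries that the study lists for these groups gave 0. At an unadjusted p below 0.05 there were 895 higher (5.25%) and 1605 lower (9.42%) genes. Of the 66 genes that were lower, 9 belong to any of the gene lists used here. For 65 of the 68 the adjusted p lay between 0.0984 and 0.1, just inside the threshold (edgeR quasi-likelihood test). Leaving out libraries in turn moved the count of 45 strongly. It was 839 without male replicate 2 of 7 dpl and 69 without female replicate 1 of 14 dpl. It was 0 without male replicate 3 of 7 dpl or male replicate 1 or 3 of 14 dpl, 9 without male replicate 1 of 7 dpl, and 2 without any one of the 6 others.

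Gfap (chromosome 11, bases 102887336 to 102900912), the intermediate filament gene of astrocytes and reactive Müller glia, lay in males at 63.96, 126 and 118 CPM at 7 dpl and 20.5, 47.3 and 26.02 CPM at 14 dpl. It fell 3.26-fold, without overlap, with a log2 fold change of -1.71 (SE 0.30, edgeR quasi-likelihood test, adjusted p = 0.0984). The females lay at 52.3, 62.1 and 33.2 and 40.7, 50.8 and 47.3 CPM, with a log2 fold change of -0.079 (SE 0.30). Vim, the gene of vimentin, the other filament of gliosis, fell in males from 258, 243 and 346 CPM to 164, 170.1 and 185 CPM (log2 fold change -0.70, SE 0.14, edgeR quasi-likelihood test, adjusted p = 0.09995).

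S100a6 and S100b encode calcium-binding proteins of glia. S100a6 (chromosome 3, bases 90612882 to 90624181) fell in males from 23.5, 26.4 and 27.1 CPM to 10.9, 9.14 and 9.99 CPM (log2 fold change -1.35, SE 0.20, edgeR quasi-likelihood test, adjusted p = 0.0417), and S100b from 21.7, 29.99 and 36.2 CPM to 14.8, 12.2 and 12.4 CPM (log2 fold change -1.15, SE 0.21). All 3 male libraries of 7 dpl were above every other of the 12 libraries for both genes. Cnp, which encodes an enzyme of myelin and oligodendrocytes, fell from 35.02, 42.6 and 45.5 CPM to 14.95, 19.7 and 17.4 CPM and had the smallest adjusted p of the male genes (log2 fold change -1.23, SE 0.15, edgeR quasi-likelihood test, adjusted p = 0.0131). Its female libraries lay at 24.3, 20.00 and 19.4 and 24.6, 21.9 and 19.4 CPM.

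Many of the largest falls in males belonged to gene models without an established symbol. Gm43230, with a log2 fold change of -3.52 (SE 0.78), lay at 12.5, 2.08 and 11.5 CPM at 7 dpl and 1.27, 0.222 and 0.736 CPM at 14 dpl. Gm37124, with -3.40 (SE 0.64), was likewise highest in replicates 1 and 3 of 7 dpl. Further genes that fell in males were Etv1, an ETS transcription factor, with a log2 fold change of -1.23 (SE 0.22), and Carhsp1, an RNA-binding protein, with -1.17 (SE 0.21). Dio2, the deiodinase that activates thyroid hormone, fell by 1.53 (SE 0.29), Pla2g4a, a phospholipase that releases arachidonic acid, by 1.59 (SE 0.30), and the nucleolar gene Utp14b by 1.01 (SE 0.20), all on the log2 scale. Gabrb1, a subunit of GABA-A receptors, fell by 0.92 (SE 0.20), and Mmp14, a membrane metalloprotease of the matrix, by 0.68 (SE 0.15). Ttc21a, named for its tetratricopeptide repeats, rose from 1.09, 1.83 and 0.829 CPM to 3.74, 4.16 and 2.79 CPM. Named after their values were seen, Sox9 and Nfia, transcription factors of glial identity, fell by 0.84 (SE 0.17) and 1.24 (SE 0.26), Yap1, the effector of the Hippo pathway, by 0.80 (SE 0.16), and Ccnd1, the gene of cyclin D1, by 1.11 (SE 0.22).

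These 66 genes were chosen for their fall in these libraries, so their pattern over them is a description. The male libraries of 7 and 14 dpl did not overlap for 65 of them. Of all genes tested, 8.72% were lower and 7.26% higher at 14 dpl without overlap. Male replicate 3 of 7 dpl had the highest of the 3 values for 49 genes and the lowest for 0, and replicate 2 the lowest for 54. In females, 41 of the 66 were lower and 25 higher at 14 dpl, with a median log2 fold change of -0.087 against -1.14 in males, and 1 of the 66 was lower at an unadjusted p under 0.05. In the 2 male SCFA libraries of 7 dpl in the last 12 columns, the same genes lay near the level of 14 dpl. The median log2 ratio of the mean of 7 dpl over that of 14 dpl was 1.15 for the first 31 columns and 0.078 when the 7 dpl mean was taken from the last 12, and both of these libraries exceeded all 3 of 14 dpl for 22 genes, as they did for 20.5% of all genes tested. Because the genes were chosen in the first 31 columns, a smaller ratio in other libraries is partly given by that choice. In those libraries, Gfap lay at 41.01 and 21.2 CPM, Vim at 173 and 181 CPM and S100a6 at 7.39 and 9.65 CPM. Cnp lay at 21.2 and 25.95 CPM in them, above the 3 libraries of 14 dpl. The order of columns and the day cannot be told apart in that ratio, because no male library of 14 dpl stands in the last 12 columns. The part of the libraries that stood apart in the male result was not tested.

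**Figure D3:**
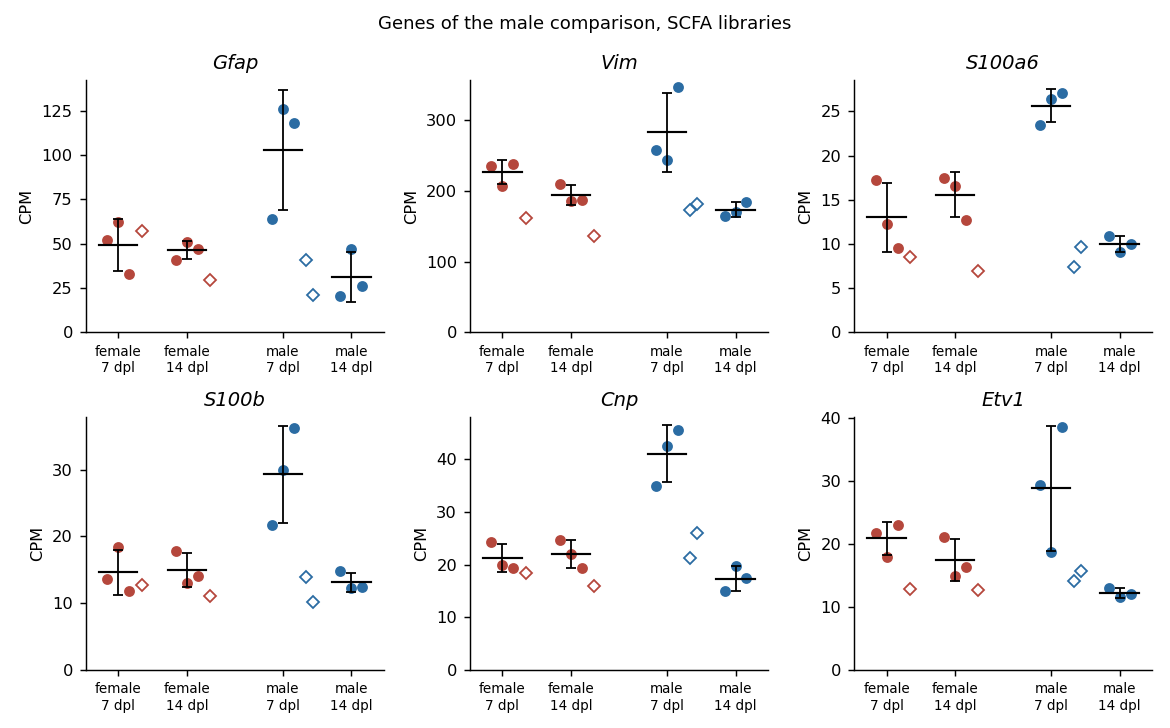
CPM of 6 genes that fell in males (y axes, from 0) in SCFA females (red) and males (blue) at 7 and 14 dpl, with filled circles for the libraries of the first 31 columns, black lines for their mean, bars for the SD (3 libraries each) and open diamonds for the last 12 columns. The filled male points of 7 dpl lie above those of 14 dpl in every panel, the female points overlap between the days, and the open male diamonds of 7 dpl lie below the filled ones.

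By gene list, most gliosis and injury response genes had lower values at 14 dpl in males. Of 23 tested, 21 had a negative log2 fold change in males, and 3, S100a6, Gfap and Vim, passed the adjusted p. With an unadjusted p below 0.05, 11 of the 23 were lower in males, beside 9.42% of all genes tested. The median of the list was -0.70 in males and 0.046 in females. Without male replicates 1 and 3 of 7 dpl the male median was -0.42. The libraries that the study lists for these groups replace those replicates with both male libraries of the last 12 columns. With them the male median was -0.20, with 2 genes at an unadjusted p under 0.05. Müller glia markers went the same way. In males all 8 had negative values, 4 with an unadjusted p below 0.05, with a median of -0.30, and the median in females was -0.017. The male median of the Müller glia list was -0.29 without replicates 1 and 3 of 7 dpl, and -0.43 to -0.16 with each library left out, the smallest without male replicate 1 of 14 dpl. Rlbp1, the retinoid carrier of Müller glia, had 1155, 581 and 1305 CPM at 7 dpl and 620.3, 466 and 493 CPM at 14 dpl in males. Glul, glutamine synthetase, had 5216, 3142 and 5996 and 2669, 2561 and 2487 CPM. Replicates 1 and 3 of 7 dpl were the high libraries of both, and replicate 2 lay nearer to 14 dpl.

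Microglia markers were lower at 14 dpl in males. All 10 had a negative male log2 fold change, with a median of -0.69. Of them, 6 were at an unadjusted p under 0.05, beside 9.42% of all genes that were lower, and 0 passed the adjusted p. In females 8 of 10 were higher, with a median of 0.068 and 0 at an unadjusted p under 0.05. Their mean level, as log2(CPM + 1), was 3.08, 3.26 and 3.52 in the males of 7 dpl and 2.51, 2.95 and 2.78 in those of 14 dpl, without overlap, and 2.95, 3.23 and 2.72 and 3.17, 3.06 and 2.88 in the females. Cx3cr1, the fractalkine receptor, lay in males at 5.11, 8.92 and 8.08 CPM at 7 dpl and 2.53, 5.71 and 4.52 CPM at 14 dpl, and these ranges overlapped. C1qb, a chain of complement C1q, lay at 16.6, 22.5 and 29.3 CPM and 12.2, 12.2 and 12.6 CPM, without overlap, with a log2 fold change of -0.87 (SE 0.22). The homeostatic receptor gene P2ry12 had a male log2 fold change of -0.17 (SE 0.32). Without male replicates 1 and 3 of 7 dpl the median of the list was -0.69 in males. That value rests on male replicate 2 alone at 7 dpl, the library with the most myelin transcripts.

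Lists of immune genes also had negative medians in males. Of 15 complement genes, 14 had negative values in males, 7 with an unadjusted p below 0.05, with a median of -0.74 against 0.053 in females. Of all genes tested, 9.42% were lower in males at this p. C4b, a complement component that glia produce, lay in males at 26.8, 38.97 and 36.7 CPM at 7 dpl and 11.2, 23.7 and 17.8 CPM at 14 dpl (log2 fold change -0.95, SE 0.22). Genes of disease-associated microglia had medians of -0.69 in males and -0.15 in females. MHC class I and II genes had -0.44 and -0.12, and the male value was -0.11 without male replicate 3 of 7 dpl and -0.27 without replicates 1 and 3. Without both, the disease-associated microglia list had -0.41 in males. Medians of genes of the type I interferon response were -0.53 and -0.10. The unadjusted p was under 0.05 for 9 of 20 interferon genes, all lower in males. Without male replicates 1 and 3 of 7 dpl the male interferon median was -0.13. With each library left out, the female medians ranged over 0, as -0.10 to 0.28 for complement, -0.054 to 0.28 for microglia and -0.11 to 0.23 for the gliosis list. No gene of the complement, disease-associated microglia, MHC or interferon lists passed the adjusted p in males or females. Male controls without SCFA also had lower mean levels, as log2(CPM + 1), at 14 dpl. Complement genes lay at 2.98 to 3.14 at 7 dpl and 2.61 to 2.72 at 14 dpl in them. Interferon genes lay at 3.21 to 3.88 and 2.80 to 2.95, and microglia markers at 3.22 to 3.71 and 3.15 to 3.21.

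**Figure D4:**
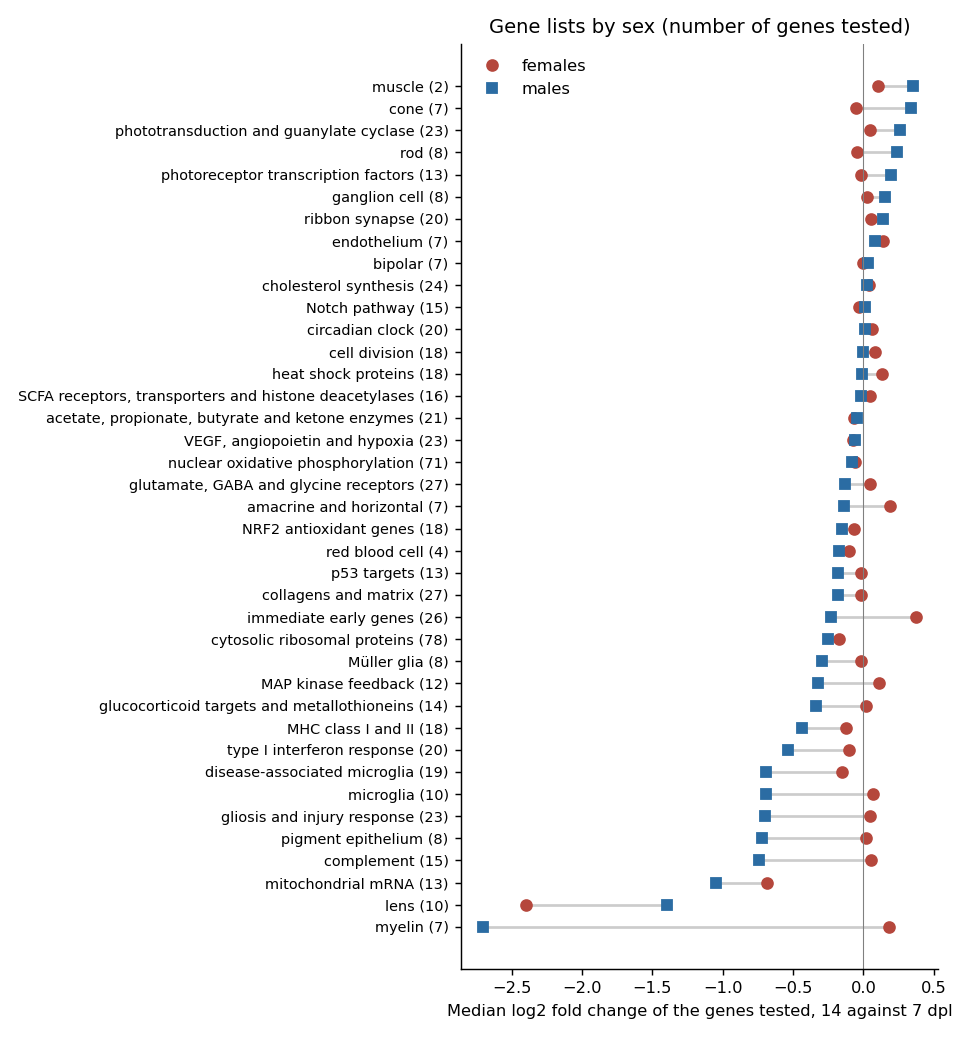
Median log2 fold change of 14 against 7 dpl over the tested genes of each list (x axis) in SCFA females (red circles) and males (blue squares), ordered by the male median, with the number of genes tested in brackets (y axis). Glial, microglial, complement and interferon lists have lower medians in males than in females, the mitochondrial list is negative in both, and the immediate early genes lie at 0.37 in females and -0.23 in males.

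Whether the change differed between the sexes was tested as an interaction of sex and day. It passed for 7 of 17046 genes (0.0411%), and the log2 fold changes in males and females had opposite signs for each of them. For S100a6 and Cnp the female values were small, 0.27 (SE 0.19) and 0.058 (SE 0.15), and did not pass, so their difference lay mainly in the males. Nr4a3 had a log2 fold change in males minus that in females of -2.92 (SE 0.46, edgeR quasi-likelihood test, adjusted p = 0.0497). For Fosl2 the difference was -2.22 (SE 0.34) and for Dio2 -2.62 (SE 0.41), with the same adjusted p. S100a6 and Cnp differed by -1.62 (SE 0.28) and -1.29 (SE 0.22). The positive differences were those of Lpin2, with 1.12 (SE 0.16), and of Pcdh15, a protocadherin of photoreceptors and hair cells, with 1.15 (SE 0.20).

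The per-library values show where these differences lay. Fosl2 was at 5.01, 4.83 and 5.11 CPM in females and 15.1, 9.22 and 16.7 CPM in males at 7 dpl, and at 10.4, 10.8 and 16.2 and 5.92, 7.59 and 8.36 CPM at 14 dpl. Males were thus above females at 7 dpl and below them at 14 dpl, without overlap on either day. Dio2 (chromosome 12, bases 90724552 to 90738438) was at 31.3, 36.5 and 29.3 and 87.03, 56.9 and 117 CPM in females and males at 7 dpl, and at 68.6, 47.6 and 88.6 and 17.6, 38.5 and 33.2 CPM at 14 dpl, with the same crossing. Lpin2 crossed the other way: the males lay at 77.4, 72.03 and 66.5 CPM at 7 dpl, below all females, and at 97.1, 89.7 and 79.4 CPM at 14 dpl, above all females. Pcdh15 lay at 203, 245 and 262 and 178, 198 and 178 CPM at 7 dpl and at 142, 163 and 139 and 277, 215 and 274 CPM at 14 dpl. Leaving out a library in turn gave between 0 and 282 genes, the latter without male replicate 2 of 7 dpl, and 0 without female replicate 2 or 3 of 7 dpl, female replicate 3 or male replicate 1 of 14 dpl, or male replicate 3 of 7 dpl. No library left out turned the sign of any of the 7, which is largely given by their choice in these libraries.

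**Figure D5:**
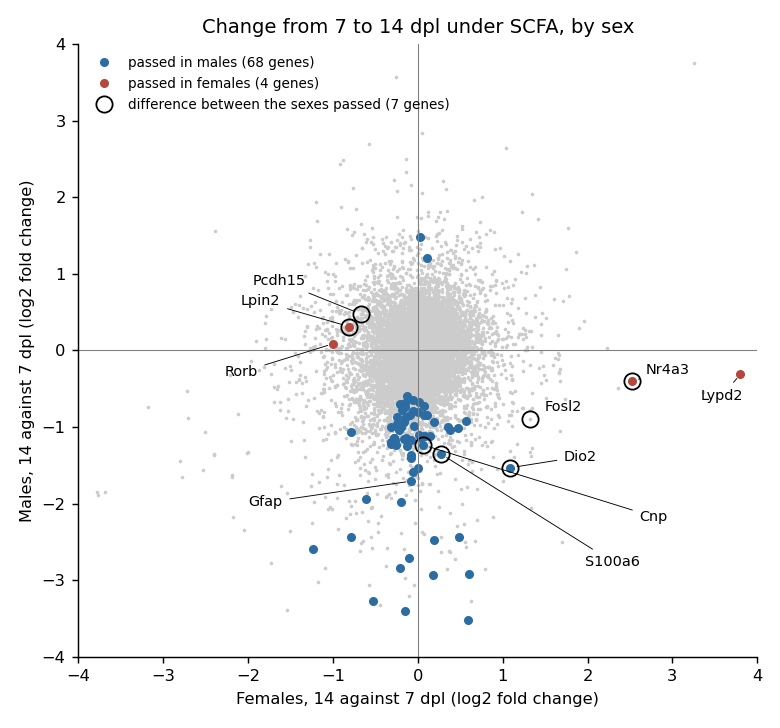
Log2 fold change of 14 against 7 dpl in SCFA females (x axis) and males (y axis) for the genes tested, with 3 genes beyond the axes. Genes that passed in males (blue, 68) lie below 0 on the y axis with 2 exceptions, those that passed in females are red (4), and rings mark the 7 genes whose change differed between the sexes. The place of Lypd2 rests on 1 or 2 counts in each female library of 7 dpl.

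Transcripts from outside the neural retina differed between the libraries. All 10 lens crystallin and filament genes were lower at 14 dpl, each at an unadjusted p under 0.05, with a median of -1.93, and 0 passed the adjusted p. Cryaa, alphaA-crystallin, lay at 4.17, 46.5 and 205 CPM in females and 6.20, 82.2 and 10.99 CPM in males at 7 dpl, and at 19.3, 26.6 and 2.06 and 1.73, 23.8 and 13.7 CPM at 14 dpl. Female replicate 3 and male replicate 2 were the high libraries, and without both the median of the list was -0.37 with 0 at an unadjusted p under 0.05. In males, 4 of 7 myelin genes passed the adjusted p and all 7 were lower. Mobp, a protein of myelin, had 2, 1886 and 87 counts in the males of 7 dpl and 2, 2 and 4 counts in those of 14 dpl, so that 1 library held most of them. Cldn11, the tight junction protein of myelin, had 10, 227 and 18 counts and 0, 1 and 2 counts. Without female replicate 3 and male replicate 2 of 7 dpl the male median of the list went from -2.70 to -1.20. Of the 8 markers of pigment epithelium, the layer under the photoreceptors, 7 were lower in males, with a median of -0.72, against 0.017 in females, where it ranged over -0.52 to 0.35 with each library left out.

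Of the photoreceptor lists, Rorb alone passed the adjusted p, in females. Of 23 genes of phototransduction, 22 were higher in males at 14 dpl, with a median of 0.26. Without male replicates 1 and 3 of 7 dpl 2 were higher and 21 lower, with a median of -0.14, and in females the median was 0.051. Medians of the ribbon synapse, bipolar cell, ganglion cell and endothelial lists over both sexes were 0.11, -0.02, 0.084 and 0.12. Collagens and matrix genes had a median of -0.014, with 1 of 27, Mmp14, past the adjusted p in males, and genes of VEGF, angiopoietin and hypoxia one of -0.034. In the vessel lists no gene passed.

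The molecules through which SCFA are sensed, carried and used are given because all 12 libraries came from mice that drank them, and the members named here were chosen after their values were seen. The receptor genes Ffar2, Ffar3 and Hcar2 were at or near the floor and were not tested, with at most 2, 1 and 7 counts in a library. The monocarboxylate transporter Slc16a1 lay at 326, 272 and 323 and 330.2, 361 and 309.6 CPM in females and males at 7 dpl, and at 366, 306 and 296 and 331, 289 and 279 CPM at 14 dpl. These ranges overlapped in both sexes (log2 fold change -0.032, SE 0.10). Bsg, basigin, the partner that brings such transporters to the membrane, had 0.026 (SE 0.10). Of 16 genes of this list tested, 1 was at an unadjusted p under 0.05, Hdac9, a histone deacetylase, with -0.19 (SE 0.081). Hdac1, Hdac2 and Hdac3 had log2 fold changes of -0.036 (SE 0.081), -0.087 (SE 0.075) and 0.11 (SE 0.078). Enzymes of acetate, propionate, butyrate and ketone use had a median of -0.13, and none passed.

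Last, the interval from 7 to 14 dpl under SCFA was set beside the same interval in controls, as an interaction of treatment and day over 22 libraries. Controls had 6 libraries at 7 dpl and 4 at 14 dpl, of which 1 was female, so that this group of sex and day had no replicate. Of 17552 genes tested, 0 passed the adjusted p (0%), 1186 had an unadjusted p under 0.05, and DESeq2 also passed 0. The smallest p belonged to Zfp617, a zinc finger gene, with a difference in log2 fold change of -0.62 (SE 0.14), to Krt6b, a keratin of stressed epithelia at 0.183 to 1.17 CPM in the SCFA libraries, with 3.20 (SE 0.74), and to Pard3b, a polarity protein, with -1.03 (SE 0.24). These did not pass (edgeR quasi-likelihood test, adjusted p = 0.725 for each). The mitochondrial mRNAs had a median log2 fold change of -0.88 under SCFA and -0.13 in controls and the gliosis genes of -0.31 under SCFA and -0.39 in controls. Under SCFA and in controls, the medians were -0.25 and -0.26 for microglia markers and -0.30 and -0.40 for complement genes. They were -0.38 and -0.45 for disease-associated microglia genes, -0.28 and -0.49 for MHC genes and -0.33 and -0.62 for interferon genes. Müller glia markers had -0.14 under SCFA and 0.10 in controls. The myelin list had -1.48 under SCFA and -2.56 in controls. Among male controls of 7 dpl, replicates 2 and 3 had summed myelin levels of 274 and 885 CPM, against 47.996 to 61.4 CPM in the 8 remaining control libraries, and male SCFA replicate 2 of 7 dpl had 678 CPM. The lens list had -1.99 under SCFA and 1.88 in controls, with a difference of -3.92 and all 10 genes at an unadjusted p under 0.05. Of the 10 control libraries, the single female one of 14 dpl had the highest summed lens level, 312 CPM, and of the SCFA libraries female replicate 3 of 7 dpl, with 544 CPM. With the libraries that the study lists for its own comparisons, 659 DEGs were found for the interaction. In that choice 2 of 3 male SCFA libraries of 7 dpl and both control females of 14 dpl come from the last 12 columns, and no other library does, so that run of columns and group partly coincide. Female control replicate 2 of 7 dpl held 308 counts of Ddx3y, a Y-linked gene, and without it again 0 genes passed.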

How the data were processed

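RNA of pooled retinas was sequenced in 43 libraries, and the authors deposited raw read counts of 54532 genes by Ensembl identifier, in 1 table of 31 and then 12 columns. The submitters' processing notes name mm10 and DESeq2, and the aligner, counter and strand setting are not given in the sources used here. Without a stated strand, reads of overlapping or antisense genes cannot be told apart. GENCODE M21 (GRCm38) gave names to 54495 genes. Groups were taken from the sample titles.

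Counts were filtered by expression (filterByExpr), scaled by TMM and tested with edgeR 4.0.16 (quasi-likelihood, R 4.3.3) with Benjamini-Hochberg adjustment: day with sex as a covariate (12 libraries), day within each sex and their difference, and treatment by day (22 libraries). A gene passed at an adjusted p under 0.1, and a DEG, after the study's thresholds, also had an absolute log2 fold change over 1. Values in CPM share 1 TMM scale over all 43 libraries, list levels are means of log2(CPM + 1), and SE was derived from the F statistic. Libraries are separate pools of animals, so p-values measure the spread between pools. Intervals and floors cover counting error only.

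Alternatives were DESeq2 1.42.0, other scaling (RLE), filters and thresholds, a robust fit, removal of trends with GC content or gene length, the run of columns as a block, the study's own choice of libraries, and each library left out. Leaving out pairs of libraries, or the mitochondrial genes, was chosen after seeing the data. Members, lists and tests were chosen with earlier results of these data known. Genes named for each comparison were those with an established symbol that passed with the smallest adjusted p and did not overlap, up to 10 in a direction. Up to 4 of each list that passed, or else its 2 highest in CPM, were also named. For an interaction with none passing, they were the 3 with the smallest p. Other named genes were chosen after their values were seen, and some genes that meet the rule are not reported here. The statistics were tested on simulated data. Same-numbered libraries of the same sex on both days had correlated deviations of -0.0693 to 0.275 (mean 0.122), over 0.1 in 3 of 6 pairs. The mean for other numbers of the same sex was -0.0619. The main fits did not take the numbers to pair the libraries, and whether they mark a block is not known.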

Additional observations from a re-analysis of the deposited data

Results flagged for a closer look

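Groups of 6 libraries of the same day were tested for a value far from the others by Dixon's criterion. Of 76 such groups, 6 held one, and all 6 were groups of 7 dpl. The criterion flags about 1 in 20 groups of independent values from 1 normal distribution. Many of these genes were named for their values in these libraries, and each group mixes the sexes. That rate therefore does not apply, and neither an excess nor a lean to 1 day can be read from the count. Male replicate 2 stood apart in the myelin genes, with Mobp at 93.5 CPM and Cldn11 at 11.3 CPM. Male replicate 3 stood apart in Vim with 346 CPM and in mt-Co3 with 1149.7 CPM. Male replicate 1 held the highest Cdh24, a cadherin, with 10.5 CPM, and female replicate 3 the highest Zfp617 with 62.8 CPM.

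The change from 7 to 14 dpl differed between the sexes for 7 genes by a test of the interaction, given as the log2 fold change in males minus that in females. It was 1.12 for Lpin2, 1.15 for Pcdh15, -2.22 for Fosl2, -2.62 for Dio2, -2.92 for Nr4a3, -1.29 for Cnp and -1.62 for S100a6.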

How the results depend on the processing

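Counts of DEGs depended strongly on the processing, and the cause was not tested. Over both sexes, where 0 genes were DEGs, DESeq2 gave 13, no filter on low counts 153, and leaving out female replicate 3 and male replicate 2 of 7 dpl (the most lens or myelin transcripts) 11, with 0 to 11 when each library was left out. In males, against 45, an adjusted p under 0.05 gave 2, no fold threshold 68, DESeq2 194, RLE 3, no filter 354, at least 10 counts in every library 3, all libraries with the run of columns as a block 78, the study's libraries 0, without replicates 1 and 3 of 7 dpl 17, without the lens and myelin libraries 937, and leaving out each library 0 to 839. In females, against 3, the same alternatives gave 1 at the stricter p, 8 by DESeq2, 48 with no filter, 0 with the run as a block and 0 with the study's libraries, and 0 to 5 with each library left out. For the sex by day interaction, against 7, they gave 4, 54, 178, 20 and 0, removal of the GC trend 11, the lens and myelin libraries left out 293, and each library left out 0 to 282. For treatment by day, against 0, no filter gave 78 and the study's libraries 659. Whether the replicate numbers mark a block is not known, and 6 of 12 libraries correlated best with their own number. With the replicate number as a block, there were 13 DEGs over both sexes, 237 in males, 5 in females and 24 for the interaction. Of 1123 alternative values of 44 results for named genes, 0 turned sign, 767 kept their side of the threshold, 315 lost a call and 41 gained one. Most of these genes were chosen for their change in these libraries, and most alternatives reuse the same libraries. Stable signs were therefore largely given by that choice. With 3 libraries in a group of sex and day, the median SE of a log2 fold change was 0.196 in males and 0.194 in females.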

Other observations

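Lists outside the comparisons above held few differences between the days, and no gene of them passed the adjusted p in the fit over both sexes. Of 18 NRF2 antioxidant genes, which detoxify and supply glutathione, 15 were lower at 14 dpl, with a median log2 fold change of -0.14. Of these, 4 were at an unadjusted p under 0.05, beside 7.22% of all genes tested that were lower at this p. Cone genes had medians of 0.34 in males and -0.051 in females, and amacrine and horizontal cell genes of -0.14 and 0.19. Both male medians rested on replicates 1 and 3 of 7 dpl and were -0.05 and 0.21 without them. Without male replicate 3 alone they were 0.17 and 0.034. The female median of amacrine and horizontal cell genes was 0.033 to 0.36 with each library left out, and that of cone genes -0.10 to 0.033. Targets of p53 had a median of -0.074 over both sexes, genes of the Notch pathway of -0.021 and genes of cell division of 0.045. The 4 red blood cell genes had a median of -0.17.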
